A study of Homo sapiens with 14 samples.

Results

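The comparison described here asked whether ferrostatin-1 changed gene expression in HT-29 cells differently when TNF was present. It was built from a 2 by 2 design, and in bulk RNA fewer cells of a kind and less RNA per cell cannot be told apart. The ferrostatin-1 effect with TNF (TNF with ferrostatin-1 against TNF) was set against the ferrostatin-1 effect without TNF (ferrostatin-1 against control), and the difference between these effects is the interaction. It used 10 of the 14 libraries of the series: 3 control, 2 ferrostatin-1, 2 TNF and 3 TNF with ferrostatin-1. HT-29 is a human colorectal carcinoma line, described in the labels as wild type, and all cells grew in RPMI 1640 with fetal bovine serum. Controls received 0.1% DMSO. The other groups received 20 uM ferrostatin-1, TNF at 100 ug/ml (the unit as labelled), or both, for 72 h. The remaining 4 libraries, of cells given liproxstatin-1 with or without TNF, entered the estimate of the spread and 1 comparison at the end. All libraries come from 1 line, and the design text calls the replicates technical, so p-values measure only the spread between these samples.

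Ferrostatin-1 is an aromatic amine that traps lipid radicals and blocks ferroptosis, the iron-dependent death of cells by lipid peroxidation. TNF is an inflammatory cytokine that signals through its receptors to NF-kB, which drives inflammatory and survival genes, and to caspases, which carry out apoptosis. Cells under such stress can also leave the cell cycle, shut down replication genes, or switch on the ATF4 program, which raises amino acid supply and, when prolonged, death genes such as DDIT3. An interaction of 0 means that ferrostatin-1 did the same with and without TNF. A positive value means that its effect was more positive with TNF, and a negative value that it was more negative.

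Total counts were 73902221 to 74189938 in the controls, 75838597 and 70163241 with ferrostatin-1, 74780451 and 74458684 with TNF, and 59913850 to 69214502 with TNF and ferrostatin-1, so the last group was the least deeply sequenced. Mitochondrial genes took 5.50% to 6.06% of the counts in the controls, 5.43% and 5.52% with ferrostatin-1, 4.68% and 4.94% with TNF, and 4.48% to 4.83% with both. The epithelial markers EPCAM, CDH1, KRT8, KRT18 and KRT19 were high in all 10 libraries (EPCAM 427 to 543 CPM, counts scaled to a common library size), whereas CDX1 reached at most 0.40 CPM, GPA33 1.94 CPM and CDH17 0.89 CPM. Of the 11 leukocyte markers in the table, PTPRC and CD163 were at or near 0 throughout, whereas LYZ was at 820 to 1137 CPM, CD14 at 9.14 to 12.4 and CD68 at 7.10 to 21.1. ITGAM went from 0.332 to 0.552 CPM without TNF to 17.0 to 23.2 with it, and LAPTM5 from 0.531 to 0.934 to 5.92 to 11.5. The leukocyte list summed to 849 to 1127 CPM in the controls, 975.2 and 1042 with ferrostatin-1, 902 and 1028 with TNF, and 1040.1 to 1192 with both. The 10 fibroblast markers summed to 25.4 to 35.8 CPM in the controls, 31.7 and 42.9 with ferrostatin-1, 51.5 and 76.3 with TNF, and 29.4 to 40.4 with both, and COL1A2, DCN and THY1 were at 0 in all 3 libraries with both. The 7 endothelial markers summed to 8.81 to 27.2 CPM in the controls, 1.16 and 40.2 with ferrostatin-1, 9.93 and 10.6 with TNF, and 13.7 to 49.4 with both. The part of depth or of these markers in the results was not tested.

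The TNF libraries, numbered 1 and 3, stood apart from each other. Their chi-square was 200.3 per degree of freedom over genes, against 14.5 to 74.2 for the other pairs within a group, and on the second principal component they lay at 135 and 25.6 while the other libraries lay between -42.7 and 12.2. The log2 difference of TNF library 3 minus TNF library 1 also moved with transcript length: its median was -0.16 over 3869 genes of 1000 to under 2000 bases and 0.41 over 2938 genes of 6000 bases or more. The median interaction over the same genes was -0.06 and 0.23. Their median ferrostatin-1 effect was -0.05 and 0.06 without TNF and -0.14 and 0.26 with TNF. The shortest genes did not follow this order. Over 3610 genes under 1000 bases the difference between the TNF libraries had a median of 0.0038 and the interaction one of 0.21. Because the TNF group enters every interaction, the median of each list described below is given also without each TNF library, and the part of transcript length was not tested.

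Of 22179 genes tested with edgeR's quasi-likelihood test, 1 had an interaction at an adjusted p under 0.05 (0.00451%), and it was higher. At an unadjusted p under 0.05 there were 4238 genes (19.1%), 1850 with a positive interaction (8.34%) and 2388 with a negative one (10.8%). At an adjusted p under 0.10, a threshold chosen after seeing the data, there were 262 genes (1.18%), 103 positive (0.464%) and 159 negative (0.717%). Other tools gave other counts at an adjusted p under 0.05, with 1331 genes in DESeq2 (559 positive, 772 negative) and 12 in limma voom with quality weights. Leaving out TNF library 3 gave 6147 genes and leaving out TNF library 1 gave 217. A fit without 1 TNF or ferrostatin-1 library leaves 1 library in that group, which adds nothing to the estimate of the spread. Counts and adjusted p from such fits, here and below, therefore cannot be set against those of the full fit. The median interaction over all tested genes was 0.04 on the log2 scale. Ferrostatin-1 alone changed 125 genes (0.564%) and ferrostatin-1 on top of TNF 1224 (5.52%). In limma voom the order was the reverse, with 1604 and 14 genes, and with a library left out the counts ranged from 13 to 801 and from 69 to 7373. TNF alone changed 3255 (14.7%), and TNF in the presence of ferrostatin-1 4019 (18.1%).

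Each gene was placed by the share of its summed ferrostatin-1 effect sizes that came from the cells with TNF. A share of at least 2/3 is called the TNF side, one of at most 1/3 the side without TNF, and the range between them both sides. These shares are descriptions, since the interaction is made of the same effects. At an unadjusted p under 0.05, 1850 genes had a positive interaction. Of these, 428 lay on the side without TNF (23.1%), 515 on both sides (27.8%) and 907 on the TNF side (49.0%). Over all tested genes with a positive interaction these shares were 24.1%, 33.7% and 42.2%. Among the 2388 with a negative interaction, 292 lay on the side without TNF (12.2%), 833 on both sides (34.9%) and 1263 on the TNF side (52.9%). Over all tested genes with a negative interaction the shares were 19.8%, 38.6% and 41.7%. The TNF side was the largest class over all tested genes too, so the side counts of the lists below stand against these shares. Of the genes on both sides, 1 of those 515 and 10 of those 833 had effects of the same sign, a pattern that choosing genes by a large interaction favours.

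**Figure D1:**
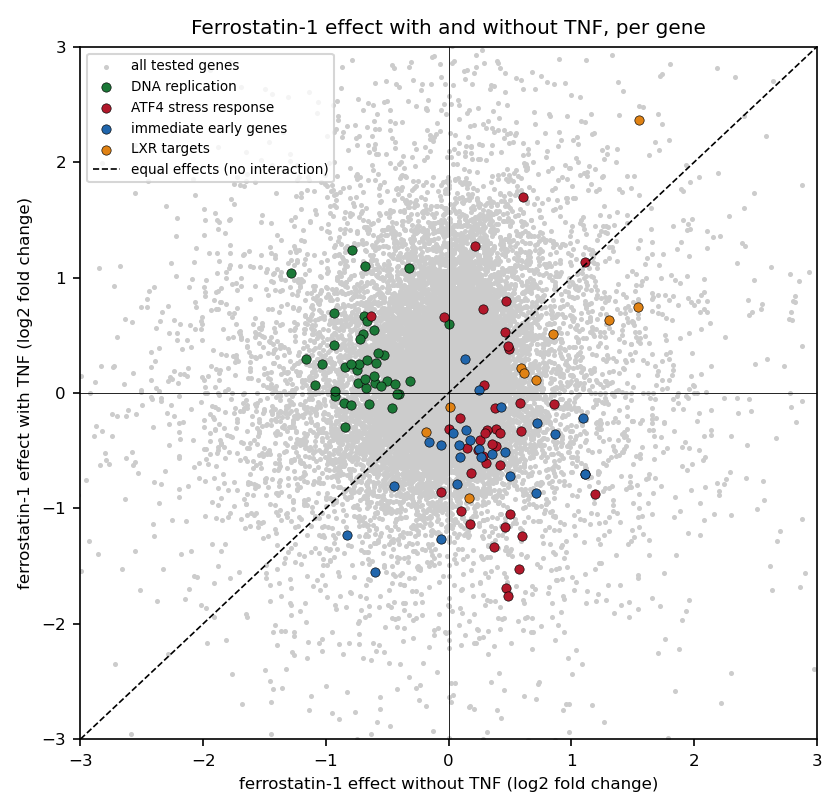
Ferrostatin-1 effect without TNF (x axis) against with TNF (y axis), both as log2 fold change, for all tested genes (grey) and 4 gene lists (colours), with the dashed line of equal effects; 1044 genes lie beyond the axis limits of 3. All replication genes lie above the dashed line and all but CDC6 left of 0 on the x axis, and most ATF4 genes lie right of 0 and below it.

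WDR76, which codes for a WD-repeat protein, was the gene whose interaction passed the threshold (ENSG00000092470, chromosome 15, 43826980 to 43867018, plus strand, in the table's coordinates). It stood at 25.8, 30.2 and 24.5 CPM in the controls, 11.6 and 13.3 with ferrostatin-1, 22.5 and 26.6 with TNF, and 34.7, 35.4 and 34.7 with both. The ferrostatin-1 libraries were the lowest and the libraries with both agents the highest, with no overlap with any other group, while TNF and control overlapped. WDR76 fell by 1.11 ± 0.13 (SE) with ferrostatin-1 alone (adjusted p = 0.00377) and rose by 0.51 ± 0.13 when ferrostatin-1 was added to TNF (adjusted p = 0.0424), on the log2 scale. The interaction was 1.62 ± 0.18 (95% interval 1.22 to 2.02, adjusted p = 0.0303, edgeR), and it lay between 1.503 and 1.75 with each of the 10 libraries left out, with an adjusted p from 1.3e-05 to 0.155. It missed the threshold without control library 1 (0.112), ferrostatin-1 library 1 (0.155), or TNF with ferrostatin-1 library 1, 2 or 3 (adjusted p = 0.125, 0.073 and 0.151). Its share of 0.316 places it on the side without TNF, close to the limit of 1/3, and the share was 0.365 without TNF library 3. Read the other way, TNF changed WDR76 by -0.13 ± 0.13 without ferrostatin-1 (adjusted p = 0.536) and raised it by 1.49 ± 0.13 with ferrostatin-1 (adjusted p = 2.5e-05).

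**Figure D2:**
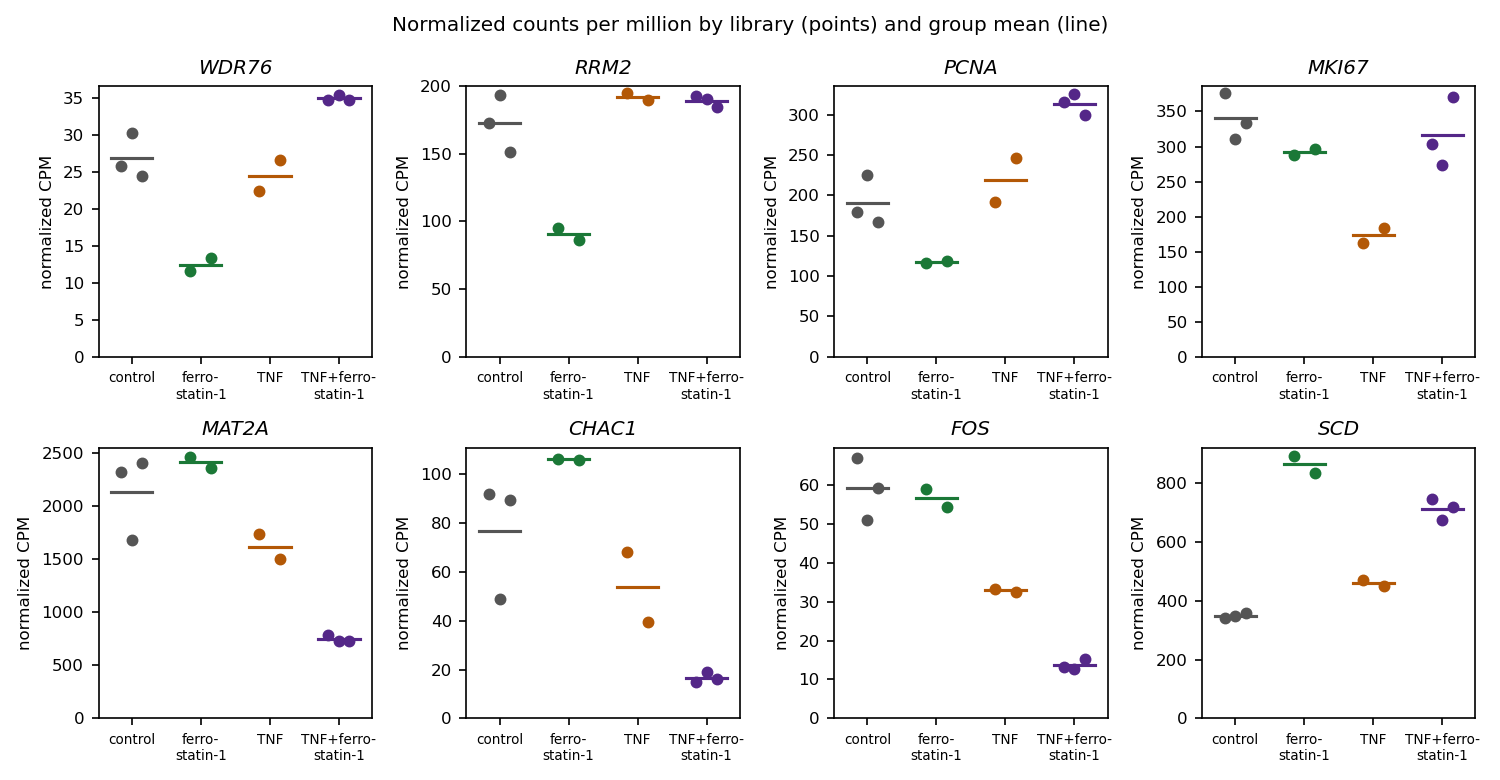
Normalized CPM (y axis) of 8 genes in the 10 libraries (points) of the 4 groups (x axis), with the group mean as a line. WDR76 and PCNA are lowest with ferrostatin-1 and highest with TNF and ferrostatin-1; MAT2A, CHAC1 and FOS are lowest with both agents; SCD is highest with ferrostatin-1 alone.

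Genes of DNA replication were low with ferrostatin-1 alone and high with both agents. Of 41 tested members, which include the MCM helicase subunits, the polymerases and their loaders, and the enzymes that make deoxynucleotides, all 41 had a positive interaction, with a median of 0.92 against 0.04 over all tested genes. The interaction passed an adjusted p under 0.05 in 0 of 41 genes, under 0.10 in 19 of 41 (0.464% of all genes in that direction), and an unadjusted p under 0.05 in 40 of 41 (8.34%). In DESeq2 it passed in 34, all positive (559 positive of all 22179 genes), and in limma voom in 3. The median ferrostatin-1 effect was -0.69 without TNF and 0.22 with TNF, and 28 members lay on the side without TNF, 11 on both sides and 2 on the TNF side. Ferrostatin-1 alone lowered 15 of 41 (0.379% of all genes fell), and on top of TNF it raised 4 of 41 (1.77% of all genes rose). TNF raised 7 and lowered 1 without ferrostatin-1 (8.24% and 6.44% of all genes) but raised 39 and lowered 0 with it (8.76% and 9.36%). The summed level of the list was 3123 to 4106 CPM in the controls, 2295 and 2304 with ferrostatin-1, 3857 and 4187 with TNF, and 4566 to 4772 with both. The median interaction was 0.83 without TNF library 1, 0.96 without TNF library 3 and 0.76 without control library 2, the control library with the highest summed level. Across members the interaction moved little with transcript length (Spearman's rank correlation 0.08 over 41 genes of the same libraries).

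PCNA, the sliding clamp that holds polymerases on DNA, had 179.7, 225 and 167 CPM in the controls and 116 and 119 with ferrostatin-1. With TNF it had 192 and 247 CPM, and with both agents 315, 325 and 299.5. The ferrostatin-1 libraries were below and those with both agents above all others, and PCNA fell by 0.70 ± 0.13 without TNF (adjusted p = 0.0428) and rose by 0.52 ± 0.13 with it (adjusted p = 0.0446). Its interaction of 1.21 ± 0.19 missed the threshold (adjusted p = 0.0502), as did those of the genes that follow. RRM2, a subunit of ribonucleotide reductase, had 173, 193 and 151 CPM in the controls, 95.2 and 86.7 with ferrostatin-1, 195 and 189.6 with TNF, and 192, 191 and 185 with both. Only the ferrostatin-1 libraries stood apart, so RRM2 lay on the side without TNF: it fell by 0.92 ± 0.10 there (adjusted p = 0.00309), against -0.02 ± 0.10 with TNF (adjusted p = 0.92), and its interaction was 0.90 ± 0.14 (adjusted p = 0.0521). UHRF1, which keeps DNA methylation through replication, had 106, 117 and 89.4 CPM in the controls, 58.1 and 65.6 with ferrostatin-1, 101 and 106 with TNF, and 119, 118 and 118 with both. TNF and control overlapped, and the groups with ferrostatin-1 lay below and above them, with an interaction of 0.95 ± 0.15 (adjusted p = 0.0544). The helicase subunit MCM5 fell by 0.85 ± 0.13 without TNF (adjusted p = 0.0163), while its effect with TNF was positive, 0.22 ± 0.12, and did not pass (adjusted p = 0.264). MCM2 likewise fell by 0.73 ± 0.12 without TNF (adjusted p = 0.0235) and had a positive effect of 0.25 ± 0.12 with TNF (adjusted p = 0.192). Their interactions were 1.07 ± 0.18 and 0.98 ± 0.17 (adjusted p = 0.0544 and 0.057). ORC1, the origin recognition subunit and no member of the list, had 16.0, 24.4 and 15.8 CPM in the controls, 10.3 and 8.95 with ferrostatin-1, 19.2 and 22.3 with TNF, and 31.4, 32.3 and 32.3 with both. It showed the same order as PCNA, with an interaction of 1.59 ± 0.25 (adjusted p = 0.0544). In the 2-member group on the TNF side, the origin licensing factor CDC6 rose by 0.60 with TNF (adjusted p = 0.017), against 0.00 without it, and the polymerase subunit POLA1 had effects of 1.09 and -0.32 that did not pass.

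Replication genes are classic targets of the E2F transcription factors, so promoters are shown for 3 members that held the letters searched for below. Members without these letters are not shown, nor are the other members with a match, among them MCM3, which held 1. Promoters came from RefSeq (GRCh38.p14), matched by symbol for 35 of the 41 members, and the 250 bases before each RefSeq start were searched on both strands for TTTCCCGC, TTTCGCGC, TTTGCCGC and TTTGGCGC. A match was found in 15 of 35 members (42.9%), in 4.13% of the 12835 matched promoters of tested genes and in 2.79% of all 27305 promoters in the table. Each line gives 100 bases, 5′ to 3′ on the gene's strand, with the matches in capitals. Overlapping matches run together, as in MCM6, which has 4.
PCNA, chr20:5126628-5126727, minus strand: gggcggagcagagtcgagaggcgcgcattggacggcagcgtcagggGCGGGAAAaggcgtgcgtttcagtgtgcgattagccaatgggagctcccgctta
UHRF1, chr19:4909401-4909500, plus strand: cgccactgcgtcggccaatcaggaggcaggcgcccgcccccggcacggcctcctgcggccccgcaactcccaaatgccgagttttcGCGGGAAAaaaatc
MCM6, chr2:135876509-135876608, minus strand: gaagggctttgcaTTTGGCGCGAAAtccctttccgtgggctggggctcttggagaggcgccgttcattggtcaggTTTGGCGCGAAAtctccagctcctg
MCM6, a subunit of the same helicase as MCM5 and MCM2, rose by 1.10 ± 0.23 with TNF (adjusted p = 0.0289), against -0.69 ± 0.23 without it (adjusted p = 0.231), with an interaction of 1.78 ± 0.33 (adjusted p = 0.0713). A match describes the letters of the promoter and shows no binding. In the other 3 lists searched, 2 of 25 matched G2/M genes, 1 of 35 ATF4 genes and 0 of 19 immediate early genes held one.

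Genes of G2/M and mitosis, which build the spindle and separate chromosomes, had a median interaction of 0.94 over 30 tested members, with a median ferrostatin-1 effect of -0.50 without TNF and 0.38 with it. The interaction passed an adjusted p under 0.05 in 0 of 30, under 0.10 in 2 (0.464% of all genes in that direction) and an unadjusted p under 0.05 in 19 (8.34%), all positive. DESeq2 called 10, all positive (559 positive of all 22179 genes), and limma voom 0. Sides were mixed, with 11 members on the side without TNF, 12 on both sides and 7 on the TNF side. MKI67, the proliferation antigen Ki-67, had 376, 311 and 334 CPM in the controls, 288 and 297 with ferrostatin-1, 163 and 184 with TNF, and 304, 274 and 371 with both. The TNF libraries were the lowest, and those with both agents overlapped control and ferrostatin-1. MKI67 rose by 0.87 ± 0.13 when ferrostatin-1 was added to TNF (adjusted p = 0.00753), against -0.22 ± 0.12 without TNF (adjusted p = 0.528), and its interaction was 1.08 ± 0.18 (adjusted p = 0.0544) on the TNF side. PRC1, which bundles the central spindle, had 139.9, 129.7 and 117 CPM in the controls, 94.4 and 93.6 with ferrostatin-1, 72.2 and 105 with TNF, and 129, 129.6 and 126 with both, with an interaction of 0.99 ± 0.20 (adjusted p = 0.084). The checkpoint protein MAD2L1 had an interaction of 0.86 ± 0.22 (adjusted p = 0.115) on the side without TNF. CCNB1, PLK1, AURKA and CDC20, which drive mitotic entry and exit, had interactions of 0.23, -0.14, 0.20 and -0.06. The list's median was 0.61 without TNF library 1 and 1.23 without TNF library 3. The median ferrostatin-1 effect with TNF was 0.035 without TNF library 1 and 0.74 without TNF library 3, so its size depended on which TNF library was used. Across members the interaction went with transcript length (Spearman's rank correlation 0.57 over 30 genes of the same libraries, against 0.04 over all tested genes), as did the effect with TNF (0.62) more than that without TNF (0.115). MKI67, at 12678 bases, is the longest member, and the part of length in these values was not tested.

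The summed level of ATF4 stress response genes was lowest with both agents. Of 42 tested members, 34 had a negative interaction, with a median of -0.75, a median ferrostatin-1 effect of 0.38 without TNF and -0.38 with it. The interaction passed an adjusted p under 0.05 in 0 of 42, under 0.10 in 8 (0.717% of all genes in that direction) and an unadjusted p under 0.05 in 27 (10.8%), all negative. DESeq2 called 15, all negative (772 negative of all 22179 genes), and limma voom 0. Ferrostatin-1 alone changed 0 of the 42 in edgeR, where it changed only 0.564% of all genes. On top of TNF it lowered 10 (3.75% of all genes fell). TNF lowered 11 without ferrostatin-1 and 32 with it (6.44% and 9.36% of all genes). Members lay on both sides (19), the TNF side (19) and the side without TNF (4). The summed level was 13472 and 13872 CPM in control libraries 1 and 3 but 8909 in control library 2, 15293 and 15075 with ferrostatin-1, 10007 and 7504 with TNF, and 6518 to 7151 with both. The list's median was -0.57 without control library 2, -0.47 without TNF library 1 and -0.96 without TNF library 3, and its correlation with transcript length across members was 0.59. The median ferrostatin-1 effect with TNF was -0.15 without TNF library 1 and -0.68 without TNF library 3. Sides were placed with all libraries, and they depend on this effect.

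CHAC1, a glutathione-degrading enzyme and a known ATF4 target, had 91.8, 48.9 and 89.4 CPM in the controls, 106 and 106 with ferrostatin-1, 68.2 and 39.6 with TNF, and 15.1, 18.8 and 16.2 with both. The libraries with both agents were below all others, and control library 2 lay within the TNF range. CHAC1 fell by 1.69 ± 0.25 when ferrostatin-1 was added to TNF (adjusted p = 0.00895), while its effect without TNF was positive, 0.47 ± 0.25, and did not pass (adjusted p = 0.498), and the interaction was -2.16 ± 0.36 (adjusted p = 0.0544). DDIT3, the death-promoting factor CHOP, had 47.2, 25.1 and 46.5 CPM in the controls, 57.8 and 53.2 with ferrostatin-1, 41.3 and 23.8 with TNF, and 9.69, 11.4 and 7.78 with both, in the same order. It fell by 1.76 ± 0.27 with TNF (adjusted p = 0.0102), with an interaction of -2.25 ± 0.38 (adjusted p = 0.057). ATF4 itself had 839.9, 636 and 823 CPM in the controls, 888 and 841 with ferrostatin-1, 917 and 552 with TNF, and 317, 365 and 319 with both. It fell by 1.14 ± 0.18 with TNF (adjusted p = 0.0102), with an interaction of -1.31 ± 0.25 (adjusted p = 0.0816) on the TNF side. SESN2, a stress-induced sestrin, fell by 1.16 ± 0.22 with TNF (adjusted p = 0.0199), and its interaction was -1.62 ± 0.31 (adjusted p = 0.0767). MAT2A, which makes the methyl donor S-adenosylmethionine and was no member of the list, had 2320, 1677 and 2405 CPM in the controls, 2464 and 2362 with ferrostatin-1, 1734 and 1498 with TNF, and 785, 726 and 729 with both. It fell by 1.11 ± 0.13 on top of TNF (adjusted p = 0.00379), with an interaction of -1.29 ± 0.19 (adjusted p = 0.0502), and its annotated span overlaps that of GGCX.

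ATF4 acts on C/EBP-ATF response elements, searched here as TGATGCAA and TGATGAAA in the same window on both strands. They were found in 4 of 35 matched ATF4 list promoters (11.4%), against 0.849% of the promoters of tested genes, and in 0 of the 35 replication promoters. No match of these letters overlapped an E2F match. The 3 members shown were taken from those 4, and the match is in capitals on the gene's strand.
CHAC1, chr15:40953221-40953320, plus strand: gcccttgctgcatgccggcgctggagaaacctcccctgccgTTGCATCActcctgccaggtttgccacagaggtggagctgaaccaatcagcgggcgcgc
AARS1, chr16:70289640-70289739, minus strand: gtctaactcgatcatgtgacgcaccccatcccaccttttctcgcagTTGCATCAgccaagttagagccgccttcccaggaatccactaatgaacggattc
ASNS, chr7:97872423-97872522, minus strand: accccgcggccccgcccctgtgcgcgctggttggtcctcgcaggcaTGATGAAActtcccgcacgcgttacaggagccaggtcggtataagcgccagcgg
AARS1, the alanyl-tRNA synthetase, had an interaction of -0.88 ± 0.24 (adjusted p = 0.124) and asparagine synthetase, ASNS, one of -0.77 ± 0.31 (adjusted p = 0.218). AARS1 fell by 0.70 with TNF (adjusted p = 0.0397), and its effect without TNF was positive, 0.18, and did not pass (adjusted p = 0.749). The ASNS effects were -0.35 with TNF and 0.42 without, and neither passed.

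Immediate early genes, the fast transcriptional output of growth factor and stress kinases and their feedback phosphatases, had a negative interaction in 24 of 25 tested members, with a median of -0.73. The interaction passed an adjusted p under 0.05 in 0, under 0.10 in 4 (0.717% of all genes in that direction) and an unadjusted p under 0.05 in 18 (10.8%), all negative. DESeq2 called 12, all negative (772 negative of all 22179 genes), and limma voom 0. The median ferrostatin-1 effect was 0.18 without TNF and -0.48 with it. Ferrostatin-1 changed 0 members alone (0.564% of all genes changed) and lowered 5 on top of TNF (3.75% of all genes fell). Of the members, 12 lay on the TNF side, 8 on both sides and 5 on the side without TNF. FOS, a subunit of the AP-1 factor, had 67.0, 51.2 and 59.3 CPM in the controls, 59.1 and 54.4 with ferrostatin-1, 33.3 and 32.5 with TNF, and 13.1, 12.8 and 15.2 with both. Control and ferrostatin-1 overlapped, TNF lay below them and both agents together lay lowest. FOS fell by 1.27 ± 0.13 with TNF (adjusted p = 0.00122), against -0.06 ± 0.13 without it (adjusted p = 0.924), with an interaction of -1.21 ± 0.18 (adjusted p = 0.0502) on the TNF side. DUSP1, a phosphatase that switches off stress kinases, had 15.7, 12.4 and 16.7 CPM in the controls, 25.9 and 23.1 with ferrostatin-1, 17.98 and 16.1 with TNF, and 10.2, 9.24 and 8.61 with both. It was highest with ferrostatin-1 alone and lowest with both, a pattern of both sides, with effects of 0.71 ± 0.15 (adjusted p = 0.0576) and -0.86 ± 0.15 (adjusted p = 0.0142) and an interaction of -1.58 ± 0.21 (adjusted p = 0.0502). JUND and ZFP36, an AP-1 subunit and an mRNA decay factor, had interactions of -0.98 ± 0.21 and -0.96 ± 0.21 (both adjusted p = 0.0896). The list's median was -0.55 without TNF library 1, -0.79 without TNF library 3 and -0.93 without ferrostatin-1 library 3, and its correlation with transcript length across members was 0.42.

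Among the other genes with the smallest p-values, TSC22D3, the glucocorticoid-induced leucine zipper protein, had 68.0, 52.1 and 72.5 CPM in the controls, 87.3 and 85.3 with ferrostatin-1, 81.0 and 55.6 with TNF, and 31.2, 29.9 and 31.0 with both. It was lowest with both agents, fell by 1.15 ± 0.16 on top of TNF (adjusted p = 0.00618) and had an interaction of -1.58 ± 0.22 (adjusted p = 0.0502). HS3ST1, a heparan sulfate sulfotransferase, had 51.5 to 52.6 CPM in the controls, 57.9 and 55.3 with ferrostatin-1, 32.2 and 29.5 with TNF, and 18.45 to 19.7 with both. TNF lowered it both without and with ferrostatin-1 (-0.76 and -1.58, adjusted p = 1.7e-04 and 5.5e-07), and its interaction was -0.83 ± 0.12 (adjusted p = 0.0502). The long noncoding RNA gene AC159540 (ENSG00000277701) stood at 1.07 and 1.20 CPM with TNF and between 1.85 and 4.66 CPM in the other 3 groups, with an interaction of 2.45 ± 0.35 (adjusted p = 0.0502). AP002990 (ENSG00000255508) and HELLPAR, also among the smallest p-values, overlap EEF1G and TUT1, and IGF1 and PMCH, and are uncertain, since nothing used here states whether the counting kept strand. The spans of PCNA, RRM2, MCM2, PRC1, DDIT3, DUSP1, TSC22D3, HS3ST1, SOD2, LPCAT3, PLTP, NQO1, AIFM2, SLC7A11, ACSL4, CYP1B1, BIRC3, TNFAIP3, CALR, KRT7 and KRT81 also overlap other annotated genes, and the same holds for them.

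SCD, the stearoyl-CoA desaturase that makes monounsaturated fatty acids, had 341, 349.9 and 359 CPM in the controls, 895 and 837 with ferrostatin-1, 471 and 450.4 with TNF, and 747, 675 and 719 with both. The 4 groups did not overlap, with ferrostatin-1 alone highest and control lowest. Ferrostatin-1 raised SCD by 1.31 ± 0.07 without TNF (adjusted p = 1.1e-05) and by 0.63 ± 0.07 with TNF (adjusted p = 0.00343), and the interaction of -0.67 ± 0.10 (adjusted p = 0.0502) is a smaller rise with TNF than without it. Targets of LXR, the sterol-sensing nuclear receptor, had a median ferrostatin-1 effect of 0.71 without TNF and 0.21 with it over 11 tested members, and a median interaction of -0.38. Ferrostatin-1 raised 6 of the 11 without TNF and 3 with TNF (0.185% and 1.77% of all genes), and the interaction passed in 0, with an unadjusted p under 0.05 in 7 (10.8% of all genes), all negative. DESeq2 called 1, negative (772 negative of all 22179 genes), and limma voom 0. The list's median was -0.35 without TNF library 1 and -0.46 without TNF library 3. LPCAT3, which loads polyunsaturated acyl chains onto phospholipids, rose by 0.59 ± 0.10 without TNF (adjusted p = 0.0222), against 0.21 ± 0.10 with TNF (adjusted p = 0.174). The phospholipid transfer protein PLTP had an interaction of -0.60 ± 0.22 (adjusted p = 0.183). The cholesterol exporter ABCA1 went the other way, with rises of 1.55 without TNF (adjusted p = 0.0295) and 2.37 with it (adjusted p = 0.0041) and an interaction of 0.82 ± 0.39 (adjusted p = 0.276).

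Targets of NRF2, the antioxidant response factor, had a median effect of 0.45 without TNF and 0.01 with it over 34 tested members, with a median interaction of -0.31. The interaction passed in 0 of 34, with an unadjusted p under 0.05 in 12 (10.8% of all genes), all negative. DESeq2 called 5, all negative (772 negative of all 22179 genes), and limma voom 0. Ferrostatin-1 raised 7 members without TNF and 7 with TNF (0.185% and 1.77% of all genes rose). The list's median was -0.24 without TNF library 1 and -0.44 without TNF library 3. FTL, the ferritin light chain that stores iron, had 2263, 1712 and 2327 CPM in the controls, 3352 and 3137 with ferrostatin-1, 2533 and 1657 with TNF, and 1390, 1695 and 1409 with both. It was highest with ferrostatin-1 alone, with an interaction of -1.11 ± 0.24 (adjusted p = 0.0878) on both sides. The oxidoreductase NQO1 had an interaction of -0.61 ± 0.17 (adjusted p = 0.13).

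The ferroptosis genes did not move together. Ferroptosis suppressors had a median interaction of -0.10 over 28 tested members (1 positive and 7 negative at an unadjusted p under 0.05). Drivers and markers had one of -0.18 over 27 (1 and 6). Over all genes, 8.34% were positive and 10.8% negative at that p. The interaction passed in 0 of either list in edgeR and limma voom. DESeq2 called 4 suppressors and 2 drivers, all negative, and 772 negative genes over all 22179 tested. The medians were -0.16 and -0.16 without TNF library 1 and -0.09 and -0.20 without TNF library 3. GPX4, which reduces lipid peroxides, had 217 to 225 CPM in the controls, 219.9 and 221.5 with ferrostatin-1, 367 and 256 with TNF, and 195 to 218 with both. Only TNF stood above the rest. GPX4 fell by 0.58 ± 0.13 when ferrostatin-1 was added to TNF (adjusted p = 0.0303), against -0.01 ± 0.13 without TNF (adjusted p = 0.989), with an interaction of -0.57 ± 0.18 (adjusted p = 0.148). AIFM2, also known as FSP1, which regenerates ubiquinol at membranes, had 77.1, 56.3 and 80.4 CPM in the controls, 100.0 and 101 with ferrostatin-1, 88.6 and 73.3 with TNF, and 65.6, 67.9 and 63.5 with both. It was highest with ferrostatin-1 alone, and its interaction was -0.80 ± 0.20 (adjusted p = 0.107). The cystine transporter SLC7A11 and the acyl-CoA synthetase ACSL4 differed within the TNF group, at 37.4 and 109 CPM and at 17.3 and 58.8 CPM. Their interactions of 0.33 ± 0.47 and 0.53 ± 0.47 became -0.25 and -0.10 without TNF library 1. CYP1A1 and CYP1B1, targets of the aryl hydrocarbon receptor, fell with ferrostatin-1 on both sides. CYP1A1 fell by 3.82 ± 0.24 without and 4.03 ± 0.21 with TNF (adjusted p = 2.5e-05 and 3.5e-06), an interaction of -0.20 ± 0.29 (95% interval -0.83 to 0.43), and CYP1B1 had one of 0.24 ± 0.22.

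**Figure D3:**
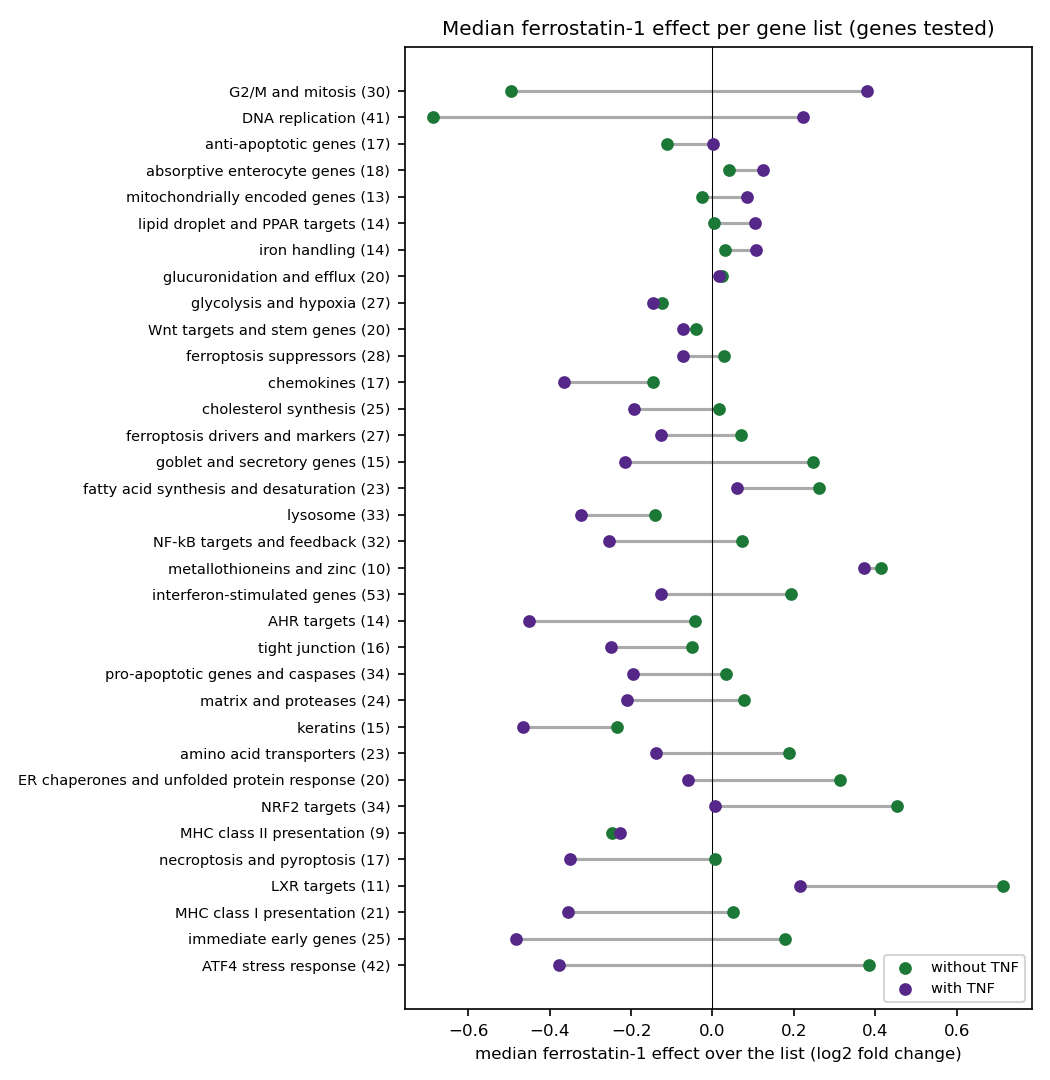
Median ferrostatin-1 effect (x axis, log2 fold change) without TNF (green) and with TNF (purple) for each gene list (y axis, number of tested genes in parentheses), ordered by the median interaction. The medians of replication and G2/M genes are negative without TNF and positive with it, those of ATF4 and immediate early genes the reverse, and those of AHR targets, chemokines, lysosome and keratins are negative in both.

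The TNF response itself was present with and without ferrostatin-1. TNFAIP3, an NF-kB feedback inhibitor, had 5.75 to 5.82 CPM in the controls, 4.88 and 4.88 with ferrostatin-1, 95.3 and 115 with TNF, and 113 to 122 with both, with an interaction of 0.39 ± 0.17 (adjusted p = 0.239). TNF raised it by 4.18 without and 4.58 with ferrostatin-1 (adjusted p = 8.2e-09 and 2.1e-08). The chemokine CXCL8 had 97.9 and 101 CPM with TNF and 101 to 107 with both, with an interaction of 0.30 ± 0.19 (adjusted p = 0.405). BIRC3, an inhibitor of apoptosis, had 43.1 and 243 CPM with TNF against 248 to 272 with both, and its interaction of 0.65 ± 0.67 became -0.11 without TNF library 1. Among NF-kB targets 21 of 32 rose with TNF alone and 20 of 32 in the presence of ferrostatin-1 (8.24% and 8.76% of all genes). The interaction passed in 0, with an unadjusted p under 0.05 in 4 positive and 12 negative members (8.34% and 10.8% of all genes). DESeq2 called 1 positive and 2 negative (559 and 772 of all 22179 genes), and limma voom 0. The median interaction was -0.21, and it was -0.10 without TNF library 1 and -0.32 without TNF library 3. SOD2, the mitochondrial superoxide dismutase, had 94.9 and 101 CPM with TNF and 143, 142 and 133 with both, and it rose by 0.51 ± 0.08 when ferrostatin-1 was added (adjusted p = 0.0102), with an interaction of 0.53 ± 0.11 (adjusted p = 0.0872).

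Genes of MHC class I presentation, which load peptides for T cells, had a median interaction of -0.39 over 21 tested members, with effects of 0.05 without TNF and -0.36 with it, and 14 members lay on the TNF side. The interaction passed in 0, with an unadjusted p under 0.05 in 7 (10.8% of all genes), all negative. DESeq2 called 3, all negative (772 negative of all 22179 genes), and limma voom 0. TNF raised 18 of 21 alone and 16 of 21 with ferrostatin-1 (8.24% and 8.76% of all genes). The list's median was -0.17 without TNF library 1 and -0.59 without TNF library 3. The median ferrostatin-1 effect with TNF, on which the sides depend, was -0.096 and -0.53 in the same order. CALR, a chaperone of the endoplasmic reticulum, fell by 0.42 ± 0.09 when ferrostatin-1 was added to TNF (adjusted p = 0.0293), with an interaction of -0.55 ± 0.13 (adjusted p = 0.0971). Of the death genes, CASP8, the initiator caspase of TNF receptors, had 56.9 to 65.8 CPM in the controls, 59.6 and 63.4 with ferrostatin-1, 79.9 and 68.7 with TNF, and 61.7 to 65.9 with both. Only the TNF libraries were above the rest, and its interaction was -0.23 ± 0.14 (adjusted p = 0.373). Pro-apoptotic genes and caspases had a median interaction of -0.25 over 34 members (2 positive and 9 negative at an unadjusted p under 0.05). Anti-apoptotic genes had one of 0.27 over 17 (3 and 2). At that p, 8.34% of all genes were positive and 10.8% negative. Neither list had a gene that passed in edgeR (0) or limma voom (0), and DESeq2 called 3 and 1 (1331 of all 22179 genes). The medians were -0.05 and 0.12 without TNF library 1 and -0.38 and 0.41 without TNF library 3.

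**Figure D4:**
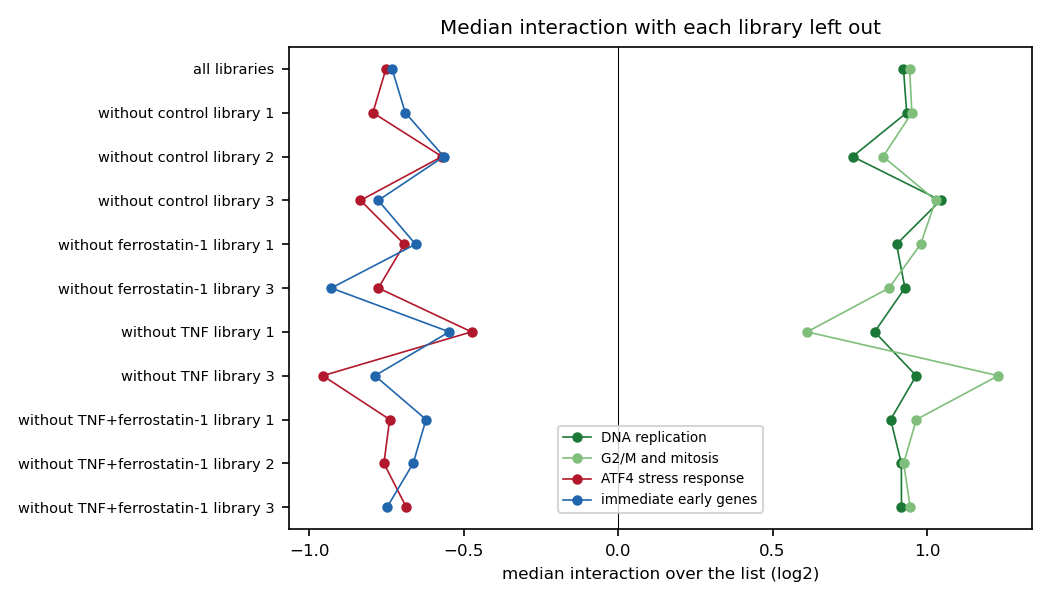
Median interaction (x axis, log2) of 4 gene lists with all libraries and with each of the 10 libraries left out (y axis). The medians of DNA replication and G2/M genes stay above 0 and those of ATF4 and immediate early genes below 0 in every row, and G2/M and ATF4 genes move most when a TNF library is left out.

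KRT81, a hair keratin, had 47.6 to 48.4 CPM in the controls and 43.7 and 50.4 with TNF but 57.1 and 1.45 after ferrostatin-1 alone, and 1.47 to 1.79 with both agents. Its interaction of -4.10 ± 1.61 (adjusted p = 0.208) became 0.23 without ferrostatin-1 library 1. KRT7, a simple epithelial keratin, differed in the same way (100.2 and 9.51 CPM after ferrostatin-1 alone), and its interaction of -2.27 ± 0.93 (adjusted p = 0.222) became 0.26 without that library.

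Liproxstatin-1, another inhibitor of ferroptosis that traps lipid radicals, was given at the same dose and time with and without TNF in 4 libraries. Its interaction with TNF was computed in the same model and shares the control and TNF libraries, so the values are only set side by side. Medians of the liproxstatin-1 interaction were 0.63 for replication, 0.83 for G2/M, -1.0003 for ATF4 and -0.90 for immediate early genes, against 0.92, 0.94, -0.75 and -0.73 for ferrostatin-1. WDR76 stood at 14.8 and 17.1 CPM after liproxstatin-1 and at 31.5 and 31.1 when TNF was added, an interaction of 1.10 ± 0.19, and CHAC1 had 111 and 112 CPM and 9.63 and 9.73 CPM, an interaction of -3.01 ± 0.38. The TNF effect with ferrostatin-1 minus that with liproxstatin-1, which needs neither control nor TNF libraries and was added after seeing the data, is the direct test of this single pair of compounds. No gene passed in edgeR (0 of 22179; the smallest adjusted p was 0.329), 879 genes had an unadjusted p under 0.05 (3.96%), and DESeq2 called 19 and limma voom 8. The difference was 0.52 (95% interval 0.11 to 0.93) for WDR76, 0.35 (-0.07 to 0.77) for PCNA and 0.85 (0.02 to 1.69) for CHAC1. It was -0.60 (-0.83 to -0.36, adjusted p = 0.417) for SCD and -1.51 (-2.14 to -0.89, adjusted p = 0.563) for the amino acid transporter SLC6A20. SLC6A20 had 2.44 to 3.31 CPM with TNF and ferrostatin-1 against 28.8 and 31.5 with TNF and liproxstatin-1. That gap in level also holds any gap between the compounds without TNF, so it is not the size of the difference in TNF effect. These intervals do not show that the compounds act alike.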

How the data were processed

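RNA-seq of 14 HT-29 libraries was used, as raw counts per gene in 1 table deposited by the authors. Per the labels' protocols, libraries came from poly(A) RNA, with the second strand marked by dUTP, and were read paired-end on a NovaSeq. The submitters' processing notes list HISAT2 2.0.4, cutadapt 1.9, DESeq2, edgeR and StringTie 1.3.4d without their roles. The build, annotation, counter and use of strand were not given in the sources used here. The table's 14 FPKM columns were not used. Columns of the ferrostatin-1, TNF and liproxstatin-1 groups are numbered 1 and 3 and the sample titles 1 and 2, so these were matched by group only.

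In R 4.3.3, genes were filtered with filterByExpr (22179 of 36555 kept), scaled by TMM and tested with edgeR 4.0.16's quasi-likelihood test in 1 model of 6 groups, with Benjamini-Hochberg adjustment over all tested genes and a threshold of 0.05. Standard errors are the log2 fold change divided by the square root of F, and CPM are TMM-normalized. DESeq2 1.42.0 and limma 3.58.1 voom, other scalings and filters, a 4-group model, a replicate block and each library left out were alternatives. The script was tested on simulated data.

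The comparison and the gene lists were chosen with earlier results of these data known. Named genes were the 10 with the smallest interaction p in each direction and a mean of at least 50 counts, called genes by side and list, and 13 fixed genes. Since 1 gene passed, the 4 members of a list with the smallest interaction p were also named, and any other gene was chosen after its values were seen, as was the summary by length (longest GENCODE v29 transcript, matched by gene for 21751 genes). The table's coordinates are of an unnamed build. Promoters are from RefSeq, whose start need not be the table's.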

Additional observations from a re-analysis of the deposited data

Results flagged for a closer look

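The ferrostatin-1 effect on WDR76 differed with and without TNF by a test of the difference itself. The interaction was 1.62 on the log2 scale (adjusted p = 0.0303, edgeR), and the ferrostatin-1 effect was negative without TNF and positive with it. WDR76 missed the threshold with 4 groups in the model, with the replicate block and with some of the libraries left out.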

How the results depend on the processing

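The count of interactions at an adjusted p under 0.05 was 17 with relative log expression scaling, 37 with a stricter filter, 1331 with DESeq2, 12 with limma voom, 0 with 4 groups in the model (1464 positive and 1929 negative at an unadjusted p under 0.05) and 262 at an adjusted p under 0.10, and it was 1 with no filter. It ranged from 0 to 6147 with each library left out (0 without control library 1 or TNF with ferrostatin-1 library 1 or 3, 38 without control library 2, 27 without control library 3, 7 without ferrostatin-1 library 3). Ferrostatin-1 alone changed 204 (stricter filter), 797 (DESeq2), 1604 (limma voom) or 25 genes (4 groups), and 13 to 801 with a library left out. On top of TNF it changed 537 (no filter), 3828 (DESeq2), 14 (limma voom) or 140 genes (4 groups), and 69 to 7373 with a library left out. TNF changed 1514 (limma voom) or 2029 genes (4 groups) without ferrostatin-1, and 1766 to 7380 with a library left out. With ferrostatin-1 it changed 7240 (limma voom), and 1877 to 6276 with a library left out. The direct test of the compounds gave 19 (DESeq2), 8 (limma voom) and 0 to 3 with a library left out. The cause of these differences was not tested. Deviations from the group mean gave no sign that replicate numbers pair the samples. Their r ran from -0.059 to 0.034 over 13 same-numbered pairs and from -0.052 to 0.059 over 24 other pairs, with 0 over 0.1. In a group of 2 libraries these deviations mirror each other, so the check cannot exclude pairing. With the replicate block 0 interactions passed (1378 positive and 1619 negative at an unadjusted p under 0.05), against 22 and 294 genes for ferrostatin-1 without and with TNF.

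WDR76 missed the threshold with 4 groups (adjusted p = 0.211), and its share of 0.316 falls on both sides with limits of 1/4 and 3/4 and ranged from 0.262 to 0.365 with a library left out. With a library left out, the interaction ranged from -0.42 to 0.048 for CYP1A1, -0.065 to 0.62 for CYP1B1, -0.25 to 1.29 for SLC7A11, -0.10 to 1.67 for ACSL4 and -0.11 to 2.38 for BIRC3, with the sign reversed without TNF library 1. It ranged from -5.07 to 0.23 for KRT81 and -3.14 to 0.26 for KRT7, reversed without ferrostatin-1 library 1. Positive genes were 43.7% of those at an unadjusted p under 0.05, 60.3% with limma voom and 56.1% without TNF library 3, and the median over all genes was 0.10 with no filter and 0.15 without TNF library 3. Depth was 59913850 to 75838597 counts per library, and its part was not tested.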

Other observations

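Of 13 tested transcripts of the mitochondrial genome, 5 fell and 1 rose when ferrostatin-1 was added to TNF (3.75% and 1.77% of all genes). MT-ND3, a complex I subunit, had 188, 178 and 187 CPM in the controls, 192 and 184 with ferrostatin-1, 164 and 169.9 with TNF, and 101, 99.5 and 93.9 with both. The libraries with both agents were the lowest. MT-ND3 fell by 0.76 when ferrostatin-1 was added to TNF (adjusted p = 0.0012, edgeR), with an interaction of -0.80 ± 0.11 (adjusted p = 0.0502). MT-CO2, a complex IV subunit, instead rose by 0.49 (adjusted p = 0.0203) with an interaction of 0.54. The interaction passed in 0 of the 13 genes in edgeR. At an unadjusted p under 0.05, 1 was positive and 5 negative (8.34% and 10.8% of all genes). DESeq2 called 1 positive and 4 negative (559 and 772 of all 22179 genes), and limma voom 0. Over the 13 genes the median interaction was 0.11, and it was 0.19 without TNF library 1 and -0.00099 without TNF library 3.

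Lysosome genes had a median ferrostatin-1 effect of -0.14 without TNF and -0.32 with it over 33 tested members, and 10 fell when ferrostatin-1 was added to TNF (3.75% of all genes). TNF raised 18 of them without ferrostatin-1 (8.24% of all genes) and raised 8 and lowered 3 with it (8.76% and 9.36%). The median interaction was -0.21, and it was -0.10 without TNF library 1 and -0.35 without TNF library 3. The interaction passed in 0 in edgeR, with an unadjusted p under 0.05 in 12 (10.8% of all genes), all negative. DESeq2 called 5, all negative (772 negative of all 22179 genes), and limma voom 0. NEU1, the lysosomal sialidase, fell by 0.72 with TNF (adjusted p = 0.00825), with an interaction of -0.84 (adjusted p = 0.0677).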
